A study of Drosophila melanogaster with 6 samples.

Results

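The genes described here encode the contractile apparatus of Drosophila muscle: 31 genes chosen by their FlyBase symbols, of 17453 in the deposited tables, covering the thick filament, the muscle actins, tropomyosin and troponin, the giant elastic proteins, the Z-disc and the arginine kinase that buffers ATP. RNA had been recovered with Zn72D, a zinc finger protein that binds RNA and acts in dosage compensation and in RNA editing, and was compared with the RNA of the lysate it came from, to find the RNAs that Zn72D binds. The 3 RIP libraries held rRNA-depleted RNA from an anti-GFP immunoprecipitation, and the 3 input libraries held rRNA-depleted RNA from a small part of the lysate. Both groups came from adult heads, males and females pooled, of flies with the genotype y1 w*; P{PTT-GA}Zn72D[CA07703], in which a GFP trap tags the Zn72D protein. The tagged protein was therefore present in both groups, and no untagged or mock precipitation was analysed here. The labels do not say whether numbers 1 to 3 were separate fly collections. The p-values therefore reflect only how these samples vary, and that variation may be technical.

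A sarcomere is the repeating unit of striated muscle, in which thick filaments of myosin pull on thin filaments of actin that are anchored in the Z-disc. Calcium starts the contraction by binding troponin C, which acts through troponin T, troponin I and tropomyosin on the actin filament, and giant proteins link the thick filament to the Z-disc. Insect muscles use different actin and troponin C genes. The indirect flight muscle fills the thorax and has forms of its own, whereas a head holds the muscles that move the proboscis, the pharynx and the antennae. In bulk RNA from whole heads, fewer muscle cells and less RNA per muscle cell cannot be told apart.

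Total expected counts were 28070655 to 38182015 per RIP library and 34401553 to 38331703 per input library, of which rRNA took 6.55% ± 2.49 in RIP and 79.9% ± 2.67 in input (SD, n = 3 each). This left 25434735 to 36377598 counts in RIP and 5864723 to 8182107 in input, so the input values rest on fewer counts. Values in CPM, a count divided by the scaled library total, are given after TMM scaling, which sets the bulk of genes level between the groups, and every fold change is relative to that bulk. Markers of the labelled tissue were present, with photoreceptor markers summing to 7628, 7846 and 7983 CPM in RIP and 8439, 8626 and 9299.6 CPM in input. Replicate 3 stood apart from replicates 1 and 2 in both groups, and 1767 of 11670 tested genes were at least 2-fold lower in it in RIP and in input.

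Muscle transcripts were a sizeable part of the head RNA in both groups. The 31 genes together took 2.50%, 2.67% and 2.13% of the non-rRNA counts in RIP libraries 1 to 3, against 3.13%, 3.15% and 3.10% in input libraries 1 to 3. Every RIP library lay below every input library, with means of 2.43% ± 0.277 in RIP and 3.13% ± 0.0245 in input (SD, n = 3 each). On the TMM scale, which lies 0.38 log2 units from that of library totals without rRNA at the median gene, the sums overlapped, at 11959, 12558 and 11379 CPM in RIP and 11142, 11386 and 13070.4 CPM in input. The makeup of the muscle counts differed as well. The titin-like gene sls took 26.8%, 27.1% and 21.9% of the muscle counts in RIP, against 15.5%, 17.5% and 15.0% in input, and bt took 21.0%, 19.4% and 17.5% in RIP, against 13.6%, 13.4% and 13.7% in input.

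Per unit of length, the order of the genes can be read from TPM, rescaled here over all genes other than rRNA. In RIP the highest levels were those of Mhc (1719 ± 160.1 TPM), Mf (1448 ± 173), Mlc2 (1284 ± 61.4) and Act57B (1253 ± 274; SD, n = 3 each). Neighbours in this order overlapped within 1 SD. In input the highest levels were those of Act57B (1170.2 ± 434 TPM), Mlc2 (1142 ± 93.6), Argk1 (766 ± 86.3) and Mhc (732 ± 36.4), where Act57B overlapped Mlc2 and Argk1 overlapped Mhc within 1 SD, while Mlc2 lay above Argk1. Zasp67 was the lowest in both groups, at 4.73 ± 0.977 TPM in RIP and 2.43 ± 0.887 TPM in input. TPM does not set the bulk of genes level between the groups: over the 11658 tested genes other than rRNA the median log2 ratio of RIP to input was 1.40 in rescaled TPM (pseudocount 0.1), so these TPM levels order genes within a group and are not compared between groups. Measured from that median, 31 of 31 genes had the sign of their count-based fold change, though the values of Mhc (-0.17), Unc-89 (-0.13), Zasp52 (0.10) and Actn (0.032) were small. All 31 genes were counted in every library, the lowest count being 11, and all passed the filter on low counts.

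**Figure D1:**
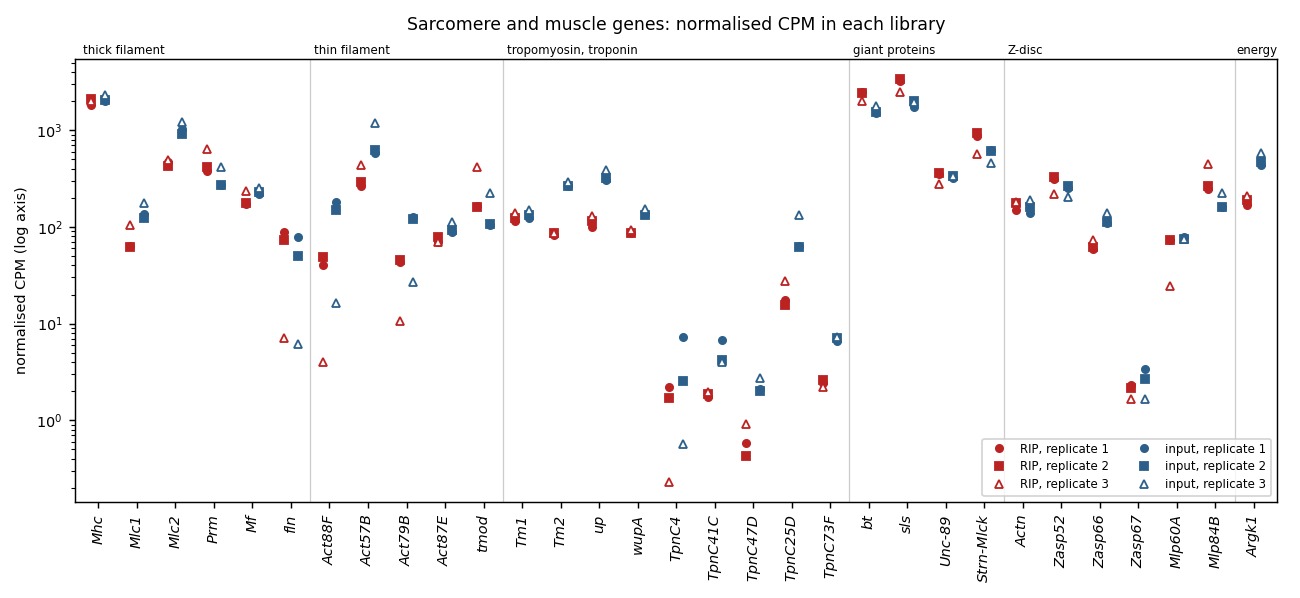
Normalised CPM of each of the 31 genes in every library, on a log axis, with RIP libraries in red left of input libraries in blue; open triangles are replicate 3. Act88F, fln, Act79B and TpnC4 show replicate 3 far below replicates 1 and 2 in both groups, and 4 of the 5 troponin C genes lie lower in every RIP library than in any input library.

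Against input, 13 of the 31 genes (41.9%) were lower in RIP and 2 (6.45%) were higher, while 16 did not pass the test (edgeR's quasi-likelihood test, adjusted p under 0.05 over all 11670 genes). Among all tested genes 17% were lower and 20.2% were higher. The median log2 fold change was -0.43 over the 31 genes and 0.058 over all tested genes. For all 15 genes called, the RIP and input libraries did not overlap, nor did they for Mlp84B and Mlp60A, which were not called. How many of all tested genes showed no overlap was not counted. The lower genes were 7 of 9 in tropomyosin and troponin, 2 of 6 in the thick filament, 2 of 5 among the actins and their cap, 1 of 6 in the Z-disc and Argk1, and the higher ones were 2 of 4 giant proteins. With the replicate number as a block 8 were higher and 18 lower (32.7% and 27.7% of all genes). The edgeR count of higher muscle genes was 0 without RIP replicate 2, without input replicate 1 or without input replicate 2 (3, 2 and 1 at an unadjusted p under 0.05). It was 1 without RIP replicate 1, and 6 beside 20 lower without both replicate 3 libraries. Over all genes, these fits called 1702, 1628, 1593 and 1874 higher in that order. Without both replicate 3 libraries 3015 of all genes were higher and 3498 lower, so calls rose across all genes there. Scaled to library totals without rRNA, the count of higher muscle genes was 0 (0 unadjusted) beside 17 lower. That scaling put the median of all genes 0.38 log2 units lower than TMM and called 1302 genes higher and 3709 lower, against 2362 and 1989 with TMM, and leaving out the rRNA genes gave 1825 and 2488.

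**Figure D2:**
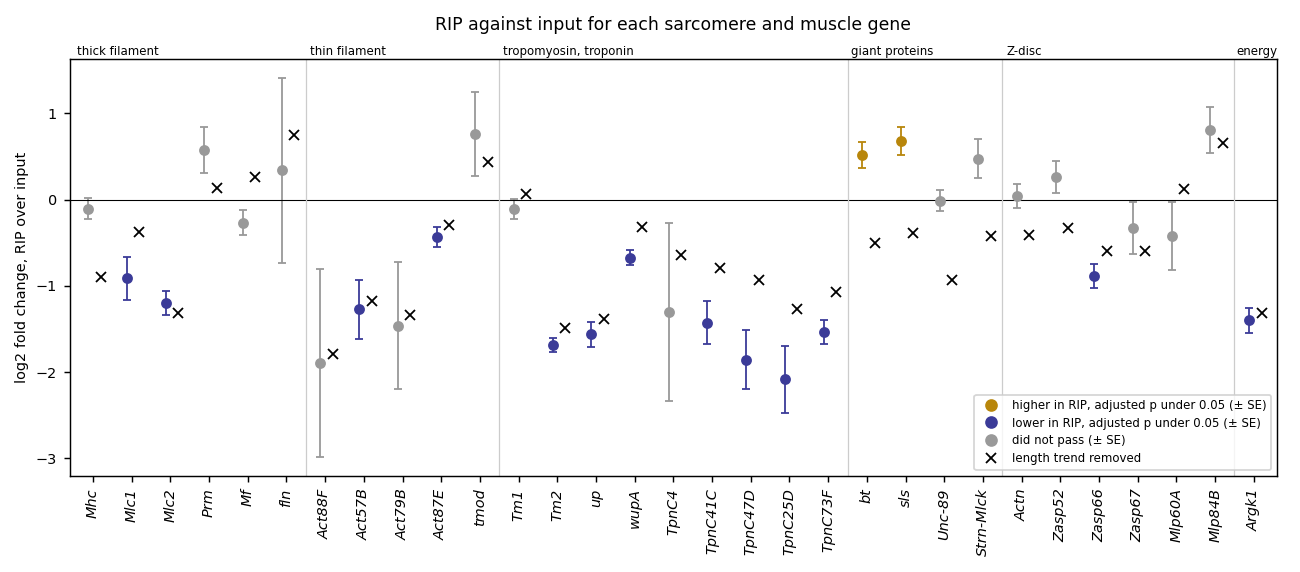
Log2 fold change of RIP over input with its SE for each gene, grouped by role, from the group-only fit (circles) and after the trend with transcript length was removed (crosses). Tropomyosin and troponin genes lie below 0 in the group-only fit, and bt and sls lie above 0 there and below 0 once the length trend is removed.

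The motor itself, the thick filament, differed among its own parts. Mhc, the only muscle myosin heavy chain gene of the fly, was recovered about as the bulk of genes, at 1845, 2114 and 1987 CPM in RIP libraries 1 to 3, against 2024, 2058 and 2305 CPM in input libraries 1 to 3 (log2 -0.10 ± 0.13 (SE), edgeR adjusted p = 0.584). The groups overlapped. Its regulatory light chain Mlc2, which binds the myosin neck, had 467, 425 and 494 CPM in RIP, against 1028, 921 and 1224 CPM in input. All RIP libraries lay below all inputs, and Mlc2 was 2.29-fold lower (log2 -1.20 ± 0.14 (SE), edgeR adjusted p = 0.00147). The essential light chain Mlc1 had 63.7, 62.2 and 106 CPM in RIP, against 136, 122 and 177 CPM in input. It too was lower in every RIP library (log2 -0.91 ± 0.25 (SE), edgeR adjusted p = 0.0314), with replicate 3 the highest of its group in both. The call for Mlc1 ended without RIP replicate 1 (adjusted p = 0.111), RIP replicate 2 (0.116), input replicate 1 (0.0856), input replicate 2 (0.0618) or input replicate 3 (0.0933), within 3.59e-09 to 0.763 over 19 alternatives.

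The other thick filament genes did not pass in the group-only fit. Myofilin, Mf, a structural protein of the filament, had 172, 178 and 237 CPM in RIP, against 219, 232 and 255 CPM in input (log2 -0.27 ± 0.15 (SE), edgeR adjusted p = 0.222). RIP replicate 3 alone overlapped the inputs, and without that library Mf was called lower (log2 -0.54, adjusted p = 0.00273, within 0.000119 to 0.653 over 19 alternatives), as it was with the replicate block (log2 -0.28, edgeR adjusted p = 0.0072). Paramyosin, Prm, which forms the filament core, averaged 477 ± 141 CPM in RIP and 321 ± 87.7 CPM in input (SD, n = 3 each; log2 0.57 ± 0.27 (SE), edgeR adjusted p = 0.154). RIP exceeded input at each number, by 0.48, 0.63 and 0.60 log2 units at numbers 1 to 3, and Prm was called higher with the replicate block (log2 0.57, edgeR adjusted p = 6.54e-06, within 6.54e-06 to 0.777 over 19 alternatives) and without both replicate 3 libraries (adjusted p = 0.00212). Flightin, fln, is described with the flight muscle genes.

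Among the muscle actins, which are nearly identical proteins made from separate genes, Act57B and Act87E were lower in RIP. Act57B, an actin of larval and adult muscles other than flight muscle, had 265, 291 and 441 CPM in RIP, against 587, 620.5 and 1204 CPM in input. It was 2.42-fold lower (log2 -1.27 ± 0.34 (SE), edgeR adjusted p = 0.0293), and replicate 3 was the highest library of both groups. Act87E had 69.6, 77.8 and 69.9 CPM in RIP, against 87.7, 93.3 and 112 CPM in input, a narrow gap in which no libraries overlapped (log2 -0.43 ± 0.11 (SE), edgeR adjusted p = 0.028). The Act57B call ended without RIP replicate 1 (adjusted p = 0.0872), RIP replicate 2 (0.0958) or input replicate 2 (0.0536), within 2.99e-10 to 0.117 over 19 alternatives, and the Act87E call without input replicate 2 (0.0856, within 0.000269 to 0.287). Of 186 gene and library values 11 were not exactly whole, all in Act57B, Act87E and Actn, and the posterior SD was at most 0.026% of a count. These values do not show how reads that match several actin genes were handled, and the part of such reads was not tested.

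The cap of the thin filament, tropomodulin (tmod), had 166, 159 and 418 CPM in RIP, against 105, 108 and 225 CPM in input. Replicate 3 was the highest library of both groups, at least 2-fold above the others, and the groups overlapped (log2 0.76 ± 0.49 (SE), edgeR adjusted p = 0.283). Within each replicate number RIP exceeded input, by 0.66, 0.56 and 0.89 log2 units at numbers 1 to 3. Without both replicate 3 libraries tmod was called higher (log2 0.45, adjusted p = 0.000278, within 3.13e-07 to 0.889 over 19 alternatives). With the replicate block it was called higher too (log2 0.71, edgeR adjusted p = 3.13e-07).

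The regulatory proteins of the thin filament were mostly lower in RIP. Tropomyosin lies along the actin filament, and its pair of genes sit side by side on chromosome arm 3R, Tm1 at chr3R:15278220-15308779 and Tm2 at chr3R:15310193-15315197 (dm6, both on the + strand). Tm2 had 82.6, 86.3 and 86.9 CPM in RIP, against 267, 266 and 290.2 CPM in input. It was 3.22-fold lower with little spread (log2 -1.69 ± 0.081 (SE), edgeR adjusted p = 0.000178). Tm1 had 115, 123 and 139 CPM in RIP, against 124, 132 and 151 CPM in input, with overlapping groups (log2 -0.11 ± 0.11 (SE), edgeR adjusted p = 0.523). The log2 ratio of RIP to input was lower for Tm2 than for Tm1 at each of the 3 numbers, by -1.60, -1.52 and -1.62 (Tm2 minus Tm1), a difference described here without a test. Without RIP replicate 3, Tm1 was called lower as well (log2 -0.30, adjusted p = 0.0344, within 0.00112 to 0.991 over 19 alternatives).

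Troponin T, the product of up, binds tropomyosin. Its RNA had 99.4, 115 and 129 CPM in RIP, against 303, 319 and 392 CPM in input, and was 2.95-fold lower (log2 -1.56 ± 0.15 (SE), edgeR adjusted p = 0.000778). Troponin I, the inhibitory subunit encoded by wupA, had 86.0, 87.1 and 92.6 CPM in RIP, against 136, 134 and 154 CPM in input. The groups were well apart and the fold smaller, at 1.60-fold lower (log2 -0.67 ± 0.088 (SE), edgeR adjusted p = 0.00207). Both genes are X-linked, as is the Z-disc gene Actn, which was not called (log2 0.047, edgeR adjusted p = 0.833).

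Of the 5 troponin C genes, the calcium sensors, 4 were lower in RIP. Per length TpnC25D was the highest, at 259 ± 70.1 TPM in RIP and 404 ± 165 TPM in input (SD, n = 3 each), where the mean of each other form was at most 20.0 TPM. It had 17.7, 15.4 and 27.9 CPM in RIP, against 62.9, 61.5 and 133 CPM in input, and was 4.23-fold lower (log2 -2.08 ± 0.39 (SE), edgeR adjusted p = 0.00749). Replicate 3 was the highest library in both groups, and no RIP library reached an input library. The other 3 had few counts. TpnC73F had 2.42, 2.60 and 2.23 CPM in RIP, against 6.56, 7.18 and 7.26 CPM in input (log2 -1.53 ± 0.14 (SE), edgeR adjusted p = 0.000679). TpnC41C had 1.72, 1.86 and 1.96 CPM in RIP, against 6.81, 4.19 and 3.96 CPM in input, where input library 1 stood above the others (log2 -1.43 ± 0.25 (SE), edgeR adjusted p = 0.00596). TpnC47D was near the limit of detection, with 44.0, 32.0 and 43.0 counts in RIP and 35.0, 44.0 and 53.0 counts in input, or 0.579, 0.426 and 0.904 CPM against 2.13, 2.02 and 2.73 CPM (log2 -1.86 ± 0.34 (SE), edgeR adjusted p = 0.00705). TpnC4, the form of flight muscle, is given below.

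Both muscle genes called higher in RIP encode giant proteins, 2 of the 4 in that group. The product of sls (Sallimus, at chr3L:2039681-2115611 on the - strand) is a titin-like spring between Z-disc and thick filament. It had 3203, 3403 and 2496 CPM in RIP, against 1726, 1989 and 1959 CPM in input. Every RIP library exceeded every input library, with the narrowest margin at number 3, and sls was 1.60-fold higher (log2 0.68 ± 0.16 (SE), edgeR adjusted p = 0.0193). Projectin, the kinase-bearing connecting protein encoded by bt (chr4:724400-776474, + strand), had 2510.0, 2441 and 1993 CPM in RIP, against 1517, 1529.8 and 1791 CPM in input. It was 1.44-fold higher (log2 0.52 ± 0.15 (SE), edgeR adjusted p = 0.035). Within numbers, RIP exceeded input by 0.89, 0.77 and 0.35 log2 units for sls and 0.73, 0.67 and 0.15 for bt.

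These calls were near the threshold. The sls call ended without RIP replicate 2 (adjusted p = 0.0641), input replicate 1 (0.0761) or input replicate 2 (0.0728), within 5.53e-06 to 0.231 over 19 alternatives. The bt call ended without RIP replicate 1 (adjusted p = 0.06), RIP replicate 2 (0.0843), input replicate 1 (0.119) or input replicate 2 (0.149), within 0.000122 to 0.473. The obscurin gene Unc-89, whose product lies at the M-line, had 349, 360.4 and 279.5 CPM in RIP, against 325, 337 and 336 CPM in input, with replicate 3 the lowest RIP library and overlapping groups (log2 -0.012 ± 0.12 (SE), edgeR adjusted p = 0.95). Strn-Mlck, which encodes Stretchin and related myosin light chain kinases, averaged 789 ± 197 CPM in RIP and 567 ± 93.7 CPM in input (SD, n = 3 each; log2 0.48 ± 0.23 (SE), edgeR adjusted p = 0.158). At numbers 1 to 3 its RIP value exceeded input by 0.48, 0.59 and 0.30 log2 units, and it was called higher with the block (log2 0.46, edgeR adjusted p = 0.000226, within 0.000226 to 0.845).

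At the Z-disc, 1 of 6 genes passed. Zasp66, a PDZ domain protein that binds alpha-actinin, had 58.7, 61.8 and 74.2 CPM in RIP, against 110.2, 112 and 139 CPM in input. All RIP libraries lay below all inputs (log2 -0.89 ± 0.14 (SE), edgeR adjusted p = 0.00375). Its relatives Zasp52 and Zasp67 did not pass in the group-only fit, with log2 values of 0.26 ± 0.18 (SE) and -0.33 ± 0.30 (SE). Alpha-actinin, Actn, the crosslinker of thin filaments, had 0.047 ± 0.14 (SE), and its exons share 5.03% of their bases with the same-strand gene usp and 19.4% with genes on the other strand. The muscle LIM protein genes Mlp84B and Mlp60A had 0.81 ± 0.26 (SE) and -0.42 ± 0.39 (SE). Mlp84B averaged 319.7 ± 108 CPM in RIP and 183 ± 36.5 CPM in input (SD, n = 3 each) with no overlap, and its edgeR adjusted p = 0.0542 became 0.0465 without input replicate 3, within 1.21e-07 to 0.203 over 19 alternatives. With the replicate block Mlp84B (log2 0.78, edgeR adjusted p = 1.21e-07) and Zasp52 (log2 0.25, edgeR adjusted p = 0.0165, within 0.00137 to 0.808) were called higher and Mlp60A (log2 -0.56, edgeR adjusted p = 0.0107, within 0.0107 to 0.826) lower.

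Arginine kinase, Argk1, regenerates ATP from phosphoarginine and is also made outside muscle. It had 167, 189.6 and 208 CPM in RIP, against 443, 465 and 584 CPM in input. The groups were far apart, and Argk1 was 2.64-fold lower (log2 -1.40 ± 0.15 (SE), edgeR adjusted p = 0.00103). Argk1 was 1 of 5 genes, with Mlc2, Tm2, up and TpnC73F, that kept their call under all 19 alternatives.

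The fold changes of the muscle genes followed transcript length, as those of all genes did. Across genes, which are not independent replicates and share these libraries, Spearman's rho of log2 fold change with mean transcript length was 0.67 over the 31 genes and 0.64 over all 11670. The 19 muscle genes with transcripts under 2000 bases had a median log2 fold change of -1.30, against -0.38 for the 6420 genes of that class. The 8 muscle genes of 2000 to 8000 bases had a median of 0.15, against 0.40 for 5005 genes, and the 4 above 8000 bases had 0.50, against 0.75 for 245 genes. The muscle genes' median thus lay below that of each class, and 16 of 19, 5 of 8 and 4 of 4 genes were below it, described here without a test. Fragments were also longer in RIP, by mean lengths of 195.3, 194.9 and 207.4 bases in RIP and 171.9, 170.9 and 161.8 bases in input, and the part of length and of fragmentation in the fold changes was not tested.

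**Figure D3:**
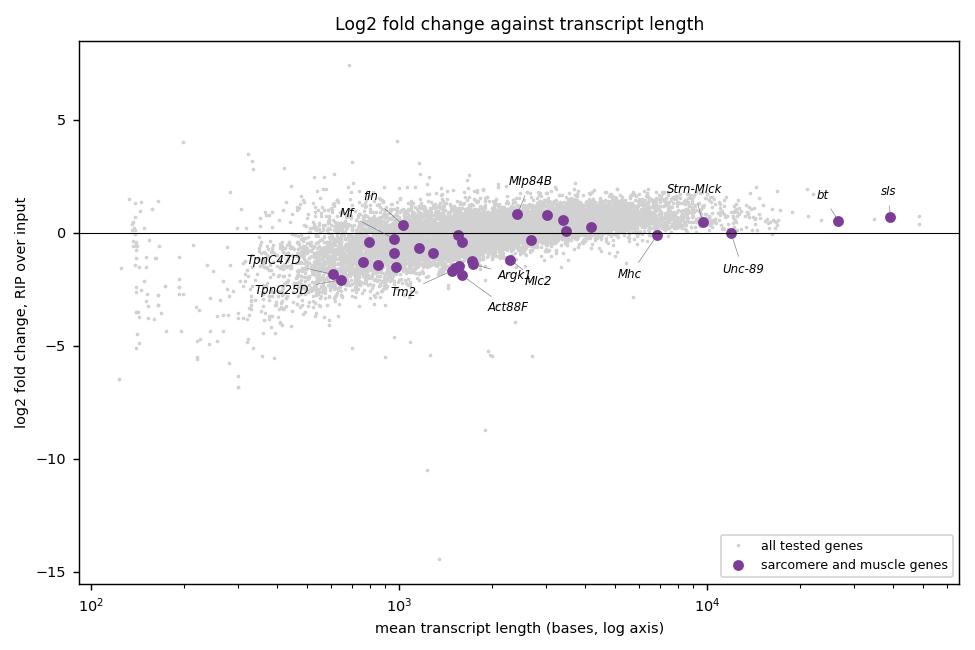
Log2 fold change of RIP over input against mean transcript length (log axis) for the muscle genes, in purple, and all 11670 tested genes, in grey. The short troponin C genes sit at the lower left and the giant genes bt and sls at the right, and Mhc and Unc-89 lie near 0.

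With the trend of level on length removed from every library by a loess curve, 8 muscle genes were lower and 0 higher (edgeR, adjusted p under 0.05), where 7.7% of all genes were lower and 5.42% higher. At an unadjusted p under 0.05 the higher count was also 0, and without the length correction DESeq2 called 3 and limma-voom 2. The 8 lower genes were Mlc2 (log2 -1.32), Tm2 (-1.49), up (-1.38), TpnC73F (-1.07), Argk1 (-1.31), Mhc (-0.89), Unc-89 (-0.94) and bt (-0.50). Mhc (adjusted p = 0.00807, within 6.39e-06 to 0.932 over 19 alternatives) and Unc-89 (0.0101, within 5.74e-07 to 0.967) had not been called before, and bt had turned from higher to lower (0.0283). The sls value turned as well, to -0.39 (adjusted p = 0.0593, within 5.53e-06 to 0.231). Both bt and sls are far longer than 8000 bases, a range that holds 245 of the 11670 genes. Unc-89 (11912 bases) and Strn-Mlck (9638 bases) also lie in that range. The curve therefore has few genes of like length there, which limits the values of all 4 genes. The calls for Mlc1, Act57B, Act87E, wupA, TpnC41C, TpnC47D, TpnC25D and Zasp66 ended, with adjusted p of 0.117 to 0.632, against 0.00207 to 0.0314 before. Their values then were -0.37 for Mlc1, -1.17 for Act57B, -0.30 for Act87E, -0.32 for wupA, -0.79 for TpnC41C, -0.93 for TpnC47D, -1.27 for TpnC25D and -0.59 for Zasp66. With the block added to the length correction all 8 were called lower (adjusted p 8.7e-08 to 0.005). With the trend taken instead from each gene's deviations from its own mean, and the block, 5 of these 8 were called lower, while Mlc1 (-0.25, adjusted p = 0.0893), wupA (-0.17, 0.069, within 1.92e-07 to 0.402 over 19 alternatives) and TpnC47D (-0.63, 0.0596, within 6.66e-07 to 0.421) were not. Under the length correction without the block 24 of 31 values were negative and their median was -0.59, against -0.019 for all genes. With the block added, 23 were lower and 4 higher, where 27.9% and 24.3% of all genes were called.

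The flight muscle genes Act88F, TpnC4 and fln differed most by replicate, and replicate 3 held far less of them in RIP and in input alike. Their group differences, which passed with the replicate block and not in the group-only fit, are given after the replicate values. Act88F (chr3R:15439969-15442177, + strand), the actin of the indirect flight muscle, had 40.7, 48.7 and 3.99 CPM in RIP libraries 1 to 3, against 183, 148 and 16.4 CPM in input libraries 1 to 3. Replicate 3 was lower than the mean of the others by 11.0-fold in RIP and 10.0-fold in input. Flightin, fln (chr3L:19989551-19991220, - strand), a thick filament protein of that muscle, had 89.01, 73.9 and 7.13 CPM in RIP, against 78.1, 50.5 and 6.18 CPM in input, lower in replicate 3 by 11.3-fold in RIP and 10.1-fold in input. TpnC4, the troponin C of stretch-activated flight muscle, had 2.20, 1.72 and 0.231 CPM in RIP, against 7.23, 2.58 and 0.566 CPM in input, from 167, 129 and 11.0 and 119, 56.0 and 11.0 counts. It was lower in replicate 3 by 7.15-fold in RIP and 7.13-fold in input. In this measure the 3 genes were thus among the lowest of all tested genes. For Act88F, fln and TpnC4 the percentiles were 0.163, 0.137 and 0.900 in RIP and 1.10, 1.07 and 2.60 in input. The difference of replicate 3 was known before these genes were set apart, so their ranks describe it and are no test of it.

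Another gene moved with them. Act79B, an actin of the tubular muscles of the thorax and legs, had 43.8, 45.6 and 10.7 CPM in RIP, against 128, 122 and 26.7 CPM in input, and was lower in replicate 3 by 4.16-fold in RIP and 4.67-fold in input. In all, 4 of 31 muscle genes (12.9%) were at least 2-fold lower in replicate 3 in both groups, beside 15.1% of all tested genes, a share near the background. The median difference of replicate 3 over all tested genes was -0.013 log2 units in RIP and 0.17 in input. Over all 31 genes, 8 were lower in replicate 3 in both groups by any margin, 17 were higher in both and 6 were mixed. These counts by any margin were not made over all tested genes. The lower muscle genes beside the 4 past 2-fold were Strn-Mlck (-0.68 log2 units in RIP and -0.44 in input), Zasp52 (-0.56 log2 units in RIP and -0.33 in input), Zasp67 (-0.41 log2 units in RIP and -0.85 in input) and Mlp60A (-1.57 log2 units in RIP and -0.033 in input). Mhc in replicate 3 differed from the mean of the others by 0.0092 log2 units in RIP and 0.18 in input. TpnC25D and Act57B were higher there, by 0.75 and 0.67 in RIP and 1.10 and 1.00 in input. The 1 gene at least 2-fold higher in replicate 3 in both groups was tmod (beside 0.908% of all genes), by 2.57-fold in RIP and 2.11-fold in input. These differences of replicate 3 rest on 1 library per group and have no test.

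**Figure D4:**
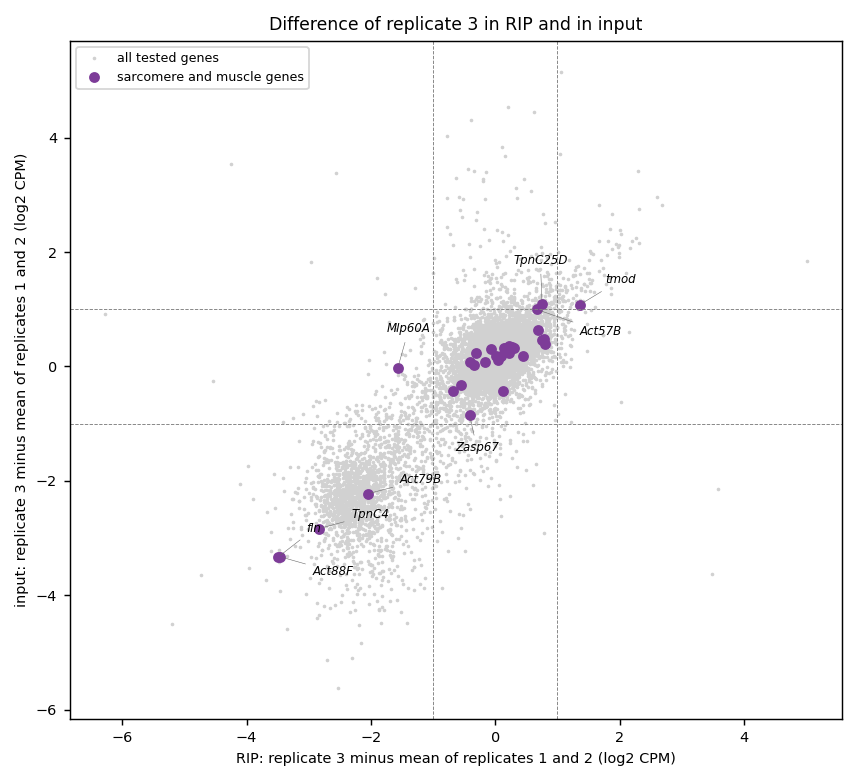
Difference of replicate 3 from the mean of replicates 1 and 2 in log2 CPM, in RIP (x axis) and in input (y axis), for the muscle genes, in purple, and all tested genes, in grey; dashed lines mark 2-fold. Act88F, fln, TpnC4 and Act79B fall in the cloud of genes low in both groups, and Mlp60A is low in RIP and level in input.

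Genes marking tissues outside the head moved in the same direction. Trunk Hox genes (Antp, Ubx, abd-A and Abd-B, which specify thorax and abdomen) summed to 14.7, 12.5 and 5.28 CPM in RIP libraries 1 to 3, against 8.39, 7.50 and 2.73 CPM in input libraries 1 to 3, and 3 of 4 were at least 2-fold lower in replicate 3 in both groups. Gut proteases summed to 3.32, 3.26 and 0.252 CPM in RIP, against 10.4, 15.5 and 2.21 CPM in input, with 3 of the 3 tested of 6 listed lower in replicate 3. Male accessory gland genes summed to 7.04, 5.58 and 1.20 CPM in RIP, against 19.6, 16.8 and 3.19 CPM in input, with 3 of the 4 tested of 6 listed lower. Replicate 3 was thus the lowest library for all 3 lists in both groups. A gene near 0 in replicate 3 passes the filter on low counts only through replicates 1 and 2. The counts of tested genes are therefore partly set by the filter, while the sums cover all listed genes. Eggshell genes had at most 13 counts in any library, and 3 of 6 (Cp16, Cp36 and Cp38) were at 0 in all. Fat body genes, among them the yolk protein genes Yp1, Yp2 and Yp3, ran the other way. They summed to 2732, 2489.6 and 5904 CPM in RIP, against 2522, 2203 and 5953 CPM in input, with 5 of 6 at least 2-fold higher in replicate 3. The part of these tissues in the flight muscle values was not tested. Nor was the balance of males and females in each pool, which may bear on the yolk protein and male accessory gland genes.

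In replicate 3, RIP and input of these flight muscle genes were low together, and the ratio within numbers varied less than the levels. The difference of replicate 3 was known beforehand, so that smaller spread is no test of the pairing. From number 1 to number 2, Act88F rose in RIP (40.7 to 48.7 CPM) and fell in input (183 to 148 CPM), while fln and TpnC4 fell in both. Act88F was lower in RIP at each number, by log2 -2.17, -1.60 and -2.02, while the group-only test gave -1.89 ± 1.09 (SE) (edgeR adjusted p = 0.238). With the replicate block it was called lower (log2 -1.92, adjusted p = 7.93e-13), and without both replicate 3 libraries as well (log2 -2.05, adjusted p = 9.36e-08), within 7.93e-13 to 0.481 over 19 alternatives. Act79B behaved alike, at -1.54, -1.42 and -1.31 within numbers, -1.46 ± 0.74 (SE) (adjusted p = 0.18) in the group-only edgeR fit and -1.43 (adjusted p = 4e-12, within 4e-12 to 0.396) with the block. For TpnC4 the ratios within numbers were -1.70, -0.57 and -1.14, and the adjusted p was 0.391 without and 9.01e-05 with the block (edgeR, within 9.01e-05 to 0.925). For fln they were positive at each number, at 0.19, 0.55 and 0.20, with adjusted p = 0.845 without and 0.00429 with the block (edgeR, within 1.27e-05 to 0.982). Of the exonic bases of fln 61.6% overlap an antisense RNA gene on the other strand, asRNA:CR45161, which had 198, 222 and 148 counts in RIP and 54, 83 and 55 in input, and the strand setting of the counting is not given in the sources used here. Over all 31 genes RIP was below input at every number for 19, above it at every number for 8, and mixed for 4. The same counts over all tested genes were not made. With the replicate block 27.7% of all tested genes were called lower and 32.7% higher.

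The mix of transcript forms of a gene shows in its mean transcript length, which the quantification weights by the abundance of each annotated transcript. Of 27 muscle genes whose length varied, 4 (14.8%) had longer transcripts in RIP than in input and 2 (7.41%) shorter (limma on log2 length, adjusted p under 0.05), where 12.9% of 6269 genes tested were longer and 3.21% shorter. Argk1, with 7 annotated transcripts of 1519 to 2415 bases, had mean lengths of 1806, 1817 and 1801 bases in RIP, against 1660.1, 1658 and 1643 bases in input. The groups were far apart (log2 ratio 0.13, limma adjusted p = 0.00159). Tm1, with 17 transcripts of 752 to 3054 bases, had 1649, 1623 and 1615 bases in RIP, against 1496, 1485 and 1437 bases in input (log2 ratio 0.15, limma adjusted p = 0.0113). Zasp66 went the other way, with 1249, 1254 and 1253 bases in RIP, against 1318, 1314 and 1308 bases in input (log2 ratio -0.069, limma adjusted p = 0.00274). These 3 kept their calls with the replicate block, although Tm1 lost its call without RIP replicate 1 (adjusted p = 0.056, within 0.00748 to 0.056 over 9 alternatives).

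The other 3 length differences were about as small as that of Zasp66 and did not hold under the block. Mf had 977, 975 and 981 bases in RIP, against 934, 933 and 950.1 bases in input (log2 ratio 0.058, limma adjusted p = 0.016, and 0.0517 with the block, within 0.00723 to 0.0729 over 9 alternatives). It lost the call without RIP replicate 1 (0.0729), 2 (0.0511) or 3 (0.0571). Unc-89 had 12225, 12147 and 12052 bases in RIP, against 11751, 11804 and 11492 bases in input (limma adjusted p = 0.0445, and 0.0595 with the block). For sls the lengths were 38416, 38474 and 37508 bases in RIP, against 40427, 39540.0 and 40751 bases in input, shorter in RIP (limma adjusted p = 0.0379, and 0.132 with the block). The Unc-89 call also ended in 5 of the 6 fits that left out 1 library, all but that without input replicate 3 (highest adjusted p = 0.15, within 0.0316 to 0.15), and the sls call in 5 of 6, all but that without input replicate 2 (highest 0.105, within 0.0266 to 0.132). The number of longer genes was 1 without RIP replicate 1 and 2 without RIP replicate 2.

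The muscle LIM protein gene Mlp60A (chr2R:24074602-24078223, + strand) showed the widest length difference, though it did not pass, and was singled out after its values were seen. Its annotated transcripts are 440, 670, 2058 and 2468 bases long. Mean lengths were 1269.7, 1194 and 661 bases in RIP, against 580.1, 573 and 492 bases in input (log2 ratio 0.87 ± 0.28 (SE), limma adjusted p = 0.11). RIP libraries 1 and 2 lay far above every input library, and RIP library 3 lay just above them. The level showed the same library apart, with 73.2, 73.0 and 24.6 CPM in RIP, against 78.3, 75.1 and 75.0 CPM in input. Without RIP replicate 3 the length difference passed (log2 ratio 1.17, limma adjusted p = 0.0183, and 0.0197 without both replicate 3 libraries).

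**Figure D5:**
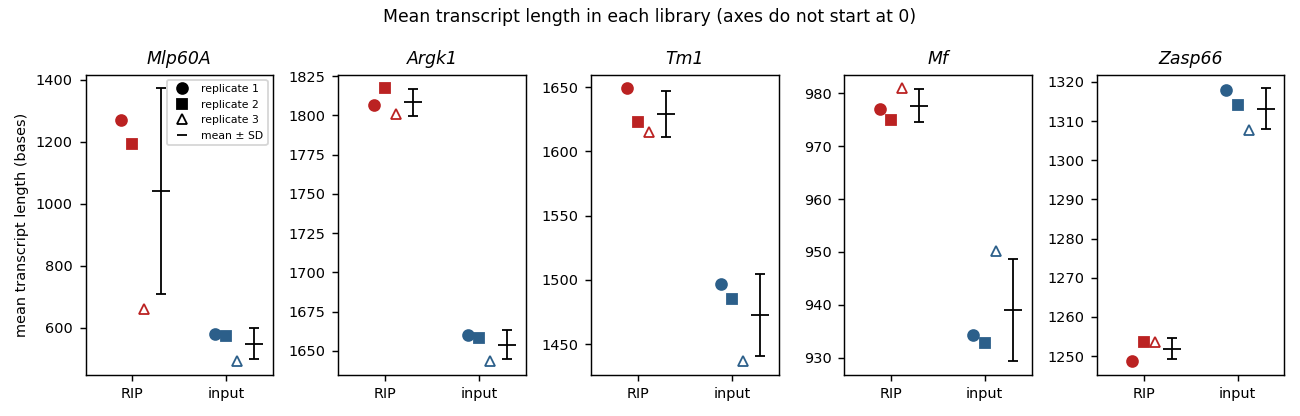
Mean transcript length of 5 muscle genes in each library (bases; axes do not start at 0), with RIP left of input, open triangles for replicate 3, and black bars for the mean ± SD (n = 3). Argk1, Tm1 and Mf were longer in all RIP libraries, Zasp66 was shorter, and for Mlp60A RIP library 3 lay just above the inputs.

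Genes that work around the sarcomere, many of which are also used in neurons and other head tissues, form 5 lists, whose counts stand beside the 20.2% of all tested genes called higher and the 17% called lower. In excitation-contraction coupling and calcium handling, 5 of 11 genes (45.5%) were higher in RIP and 0 lower by edgeR (0 lower also at an unadjusted p under 0.05 and by DESeq2 and limma-voom, and 1 with the replicate block), and the median log2 fold change was 0.33. They included the calcium channel genes Ca-beta (240.3 ± 4.49 CPM in RIP and 90.5 ± 8.54 in input, SD, n = 3 each; log2 1.41 ± 0.096 (SE), edgeR adjusted p = 0.000369) and Ca-alpha1D, the L-type pore subunit (log2 1.04 ± 0.10 (SE)). In myofibril assembly 4 of 14 (28.6%) were higher and 3 (21.4%) lower, shares near those of all tested genes. The actin-binding Lasp (log2 0.67 ± 0.11 (SE)) and the ankyrin gene Ank2 (0.98 ± 0.14 (SE)) were higher, while the small heat shock gene l(2)efl (2.71 ± 0.232 CPM in RIP and 12.1 ± 1.36 in input; log2 -2.16 ± 0.15 (SE)) and sals, which lengthens thin filaments (-0.90 ± 0.12 (SE)), were lower. Among attachment and dystrophin complex genes 9 of 15 (60%) were higher and 1 (6.67%) lower. Dystroglycan, Dg (log2 0.91 ± 0.090 (SE)), and the integrin subunit mys (0.78 ± 0.10 (SE)) were higher and the integrin-linked kinase Ilk (-0.40 ± 0.12 (SE), adjusted p = 0.0456) lower.

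Among transcription and splicing regulators of muscle 7 of 12 (58.3%) were higher in RIP and 0 lower by edgeR (0 also at an unadjusted p under 0.05 and by DESeq2 and limma-voom), with a median of 0.76. The splicing factor gene mbl had 955, 906 and 1228 CPM in RIP, against 326, 315 and 375 CPM in input (log2 1.60 ± 0.16 (SE), edgeR adjusted p = 0.000836), and sd, a transcription factor of the TEAD family, had a log2 value of 1.36 ± 0.15 (SE). Markers of neurons moved in the same direction as these lists, since all 5 (elav, nSyb, Syt1, brp and Appl) were called higher in RIP with a median log2 fold change of 1.26, and summed to 3784, 3639 and 5101 CPM in RIP, against 1686, 1706 and 2166 CPM in input. None was at 0, and the part of neurons in the values of these lists was not tested. The other head lists did not move this way. Of 5 photoreceptor markers 0 were called higher and 1 lower (median -0.095), and of 5 glia markers 0 were called (median 0.040). Nearest to a higher call were norpA (log2 0.77, edgeR adjusted p = 0.0805) and repo (log2 0.36, edgeR adjusted p = 0.0515). Of the cytoplasmic counterparts of muscle proteins 1 of 8 (12.5%) was higher and 2 (25.0%) lower. The higher gene was zip, the nonmuscle myosin heavy chain (log2 0.50 ± 0.094 (SE)), and the lower ones were sqh, its regulatory light chain (-0.82 ± 0.13 (SE)), and tsr, the actin-severing cofilin (-2.07 ± 0.19 (SE)). The heavy chain was thus above its regulatory light chain in the nonmuscle pair, and in the muscle pair Mhc and Mlc2 had -0.10 and -1.20. Once the length trend was removed, zip and sqh had -0.27 and -0.42, and Mhc and Mlc2 had -0.89 and -1.32. The essential light chain Mlc1 then had -0.37, above Mhc. With the length trend removed Ca-beta (0.73), mbl (0.81), sd (0.83), l(2)efl (-1.49), sals (-1.31) and tsr (-1.41) kept their calls. Those for Ca-alpha1D (0.18), Lasp (0.20), Ank2 (0.0057), Dg (0.17), mys (0.21), Ilk (-0.31) and sqh (-0.42) ended, and zip turned lower (-0.27, edgeR adjusted p = 0.0446, within 1.68e-05 to 0.177 over 19 alternatives). The call for Ilk also ended without any 1 library except RIP replicate 3 (highest adjusted p = 0.142, within 0.000705 to 0.333).

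The list counts also changed once the length trend was removed, where 5.42% of all tested genes were higher and 7.7% lower. In excitation-contraction coupling and calcium handling 1 of 11 was then higher (Ca-beta) and 3 were lower, namely SERCA, the calcium pump of the sarcoplasmic reticulum (log2 -0.84), RyR, its calcium release channel (log2 -0.76), and Itpr, the IP3 receptor (log2 -0.55), which had been called higher before (0.33). In myofibril assembly 0 of 14 were higher (edgeR; 0 also at an unadjusted p under 0.05) and 5 lower, and the median was -0.36. Among attachment and dystrophin complex genes 1 of 15 was higher, the sarcoglycan gene Scgalpha (log2 0.74), and 4 were lower. These were Vinc (log2 -0.79), the laminin gene LanB1 (log2 -0.69), and Dys (log2 -0.37) and wb (log2 -0.43), which had been called higher before. The median of that list turned to -0.12, against 0.51 in the group-only fit. The genes named here beyond those already given were chosen after their values were seen. Of the regulators 2 of 12 were higher (mbl and sd), and the median was 0.32. Of the 5 neuron markers elav (log2 0.98) and nSyb (log2 0.97) were higher, and Syt1 (log2 0.56), brp (log2 0.27) and Appl (log2 -0.11) did not pass.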

How the data were processed

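The 3 libraries of RIP RNA and 3 of input RNA from Drosophila heads were grouped by their labels. Flies lived at 25 C, precipitates had 8 washes, and antisense DNA with RNase H removed rRNA, per the labels' protocols. Input was 4% of lysate by the protocol but 5% by the design text. Tools listed in the submitters' processing notes are RSEM (1.2.30), STAR (2.5.4b), Trim Galore (0.4.5) and DESeq2 (1.20.0), with build dm6. Its annotation release and strand setting were not given in the sources used here. Each deposited table gives RSEM expected counts, TPM and transcript length for 17453 genes, per the file headers. Since the deposited TPM sum includes rRNA, TPM was rescaled over the genes other than 117 rRNA genes.

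Gene symbols and dm6 coordinates are those of an Ensembl annotation, in which 17179 IDs matched directly, 197 by their transcripts and 77 not at all. All 31 muscle genes were found. Sequences are not printed, as none were used here. The muscle genes and the other gene lists were chosen with earlier results of these data known. Rounded expected counts passed through filterByExpr and TMM scaling (factors 1.69 to 2.01 in RIP and 0.478 to 0.608 in input). RIP and input were compared by edgeR (4.0.16, R 4.3.3) with the quasi-likelihood test, no covariate and Benjamini-Hochberg adjustment over 11670 genes. limma (3.58.1) was used for log2 mean transcript length. Replicate 3 was set against the mean of replicates 1 and 2 on log2 CPM with a prior count of 2. The scripts were tested on simulated data.

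Values in every library are given for genes past the threshold, with a length call or with a 2-fold difference of replicate 3 in both groups, and the others mainly as means or fold changes. From each other list the text names the 2 called genes of smallest p in each direction. Alternatives were other scalings, DESeq2 (1.42.0), limma-voom, no filter, removal of the length trend (loess, span 0.3), the replicate block and leaving out libraries.

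Same-numbered RIP and input libraries deviated together from their group means (correlations of 0.665, 0.604 and 0.848), while replicate 3 ran against the other numbers (-0.789 to -0.659). The numbers were therefore taken to pair the samples, although 1 and 2 are not told apart. Replicates of a group differed beyond sampling noise in each pair, with a chi-square of 15.8 to 142 per degree of freedom, and each was kept as a sample. Read counts carry no molecular identifiers.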

Additional observations from a re-analysis of the deposited data

How the results depend on the processing

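The lower values of Mlc2, Tm2, up, TpnC73F and Argk1 kept direction and call under all 19 alternatives, and those of wupA, TpnC41C, TpnC47D, TpnC25D and Zasp66 under all that left the length trend in. Over the 31 genes and 19 alternatives, 450 results kept direction and side of the threshold, 51 passed only under the alternative, 41 no longer passed and 47 changed sign. The higher muscle genes numbered 0 with library totals without rRNA, 1 with rRNA genes left out, 1 with no filter on low counts, 8 with the replicate block, 0 with the length trend removed (4 with the block added) and 0 with the trend of deviations removed (4 with the block). The lower ones numbered 8 with the length trend removed, 23 with the block added and 20 with the trend of deviations removed and the block. Over all genes, higher and lower calls were 1302 and 3709 with library totals without rRNA, 3821 and 3230 with the replicate block, 633 and 899 with the length trend removed and 1200 and 1231 with the trend of deviations removed. Lower calls were 3259 with the length trend removed and the block. Without a filter on low counts, 2310 genes were called higher and 1588 lower. Taking out the trend of deviations and fitting the block gave 3172 higher and 2697 lower genes. The cause of these changes was not tested. Leaving out 1 library or both of replicate 3 gave 0 to 6 higher and 10 to 20 lower muscle genes, and 1593 to 3015 higher and 1409 to 3498 lower genes in all.

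Values that changed sign under the 4 length corrections are given in the order trend removed, the same with the block, trend of deviations removed, and the same with the block, the deviations alternatives having been chosen after seeing the data. On the log2 scale they were 0.26, 0.21, 0.45 and 0.41 for Mf; 0.061, 0.051, 0.14 and 0.13 for Tm1; -0.50, -0.51, -0.44 and -0.44 for bt. They were also -0.39, -0.39, -0.31 and -0.32 for sls, -0.42, -0.42, -0.38 and -0.38 for Strn-Mlck, -0.42, -0.42, -0.41 and -0.41 for Actn, and -0.33, -0.34, -0.32 and -0.33 for Zasp52, 0.12, 0.088, 0.43 and 0.35 for Mlp60A, -0.27, -0.27, -0.25 and -0.25 for zip. With library totals without rRNA, fln was -0.061, Actn -0.33 and Zasp52 -0.12. Actn was -0.057 with upper quartile scaling and -0.096 with rRNA genes left out, and Unc-89 was 0.045 with no filter on low counts. Leaving out libraries, fln ranged between -0.25 and 1.01, Unc-89 between -0.13 and 0.015 and Actn between -0.12 and 0.19.

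For transcript length, the replicate block left 272 longer and 31 shorter genes, among them 2 and 1 muscle genes. Leaving out libraries gave 240 to 670 longer and 39 to 224 shorter genes, and 1 to 5 longer and 1 to 2 shorter muscle genes. At a 1.5-fold threshold 389 genes, 4 of them muscle genes, were higher in replicate 3 in both groups. The fit that left out both replicate 3 libraries rests on 2 libraries per group. The low input counts of TpnC4, TpnC41C, TpnC47D, TpnC73F and Zasp67 limit the precision of their ratios.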
